A study of Homo sapiens with 8 samples.

Results

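*AQP3*, *CSPG4*, *ADGRG1* and *DUSP13* were followed across 8 RNA-seq libraries of HEK293T cells, a human embryonic kidney line that was transfected with CRISPR activators aimed at the fetal globin genes *HBG1* and *HBG2*. These are 4 of the 19770 genes listed in each library, found by their gene symbols. They were chosen by their levels, since earlier results of the same data had them higher than the control with every activator, and these differences from the control are given here as a description without a test. The libraries form 4 groups of 2, all collected 72 h after transfection. The control received dCas9 with MCP-mCherry, a recruited red fluorescent protein that carries no activation domain. CRISPR-DREAM (hereafter DREAM) received dCas9 with MCP-MSN, whose activation domains come from human transcription factors, MRTF-A and NRF2 among them. The SAM system received dCas9-VP64 with MCP-p65-HSF1, and dCas9-VPR carries VP64, p65 and Rta in a direct fusion to dCas9. Each group, the control included, was given 4 pooled gRNAs for *HBG1* and *HBG2*, so no library lacks dCas9 or a gRNA. The gRNAs carried MS2 loops in each group other than dCas9-VPR, where the pool was labelled without them and 1 effector plasmid of 375 ng replaced a pair of 187.5 ng each. Differences in the activation domains and in the way they were delivered cannot be told apart for dCas9-VPR.

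In CRISPR activation a catalytically inactive Cas9 is guided to a promoter by a gRNA and brings activation domains that recruit the transcription machinery. None of the 4 genes is a named target of these gRNAs, and they belong to unrelated pathways. *AQP3* encodes an aquaglyceroporin, a membrane channel for water and glycerol that in kidney sits in the basolateral membrane of collecting duct principal cells. *CSPG4* encodes the core protein of NG2, a transmembrane chondroitin sulfate proteoglycan that binds collagen VI and growth factors and marks pericytes and oligodendrocyte precursors. *ADGRG1* encodes GPR56, an adhesion G protein-coupled receptor that signals to RhoA, is needed for cortical development and is carried by cytotoxic lymphocytes. *DUSP13* encodes dual specificity protein phosphatases of skeletal muscle and testis.

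On hg38 and in the positions of the deposited files, *AQP3* lies at chr9:33441156-33447597 on the minus strand and *CSPG4* at chr15:75674322-75712849 on the minus strand. *ADGRG1* lies at chr16:57610652-57665581 on the plus strand and *DUSP13* at chr10:75094432-75109222 on the minus strand. In Gencode release 44 the canonical transcripts have 6, 10, 14 and 4 exons and lengths of 1825, 8290, 4257 and 1320 bases, in that order. The 4 genes are on 4 different chromosomes, so none is a neighbour of another.

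Upstream sequences are shown because the 4 genes were higher with the same activators, and a reader may want to see what their starts hold. They come from the RefSeq promoter table for GRCh38.p14 and cover the 250 bases before a start on the gene's own strand. Each was shortened to the longest stretch that no annotated exon covers. All 4 genes have a window in that table, 7 in all, with *DUSP13* found there under the symbol *DUSP13B*. Capitals mark matches on either strand to 9 motifs, which were the TATA box (TATAAA), the GC box (GGGCGG), the AP-1 site (TGANTCA), the antioxidant response element (TGACNNNGC), pairs of heat shock units facing each other (GAANNTTC) or apart (TTCNNGAA), the GAS element (TTCNNNGAA), the CArG box bound by SRF and the NF-kB site.
*AQP3*, chr9:33447597-33447843, minus strand: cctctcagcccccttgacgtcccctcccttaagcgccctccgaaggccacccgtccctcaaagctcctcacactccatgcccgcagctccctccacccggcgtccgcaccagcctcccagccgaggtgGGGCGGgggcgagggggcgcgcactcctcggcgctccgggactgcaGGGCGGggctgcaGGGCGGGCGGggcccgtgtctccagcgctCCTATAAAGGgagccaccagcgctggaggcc
*CSPG4*, chr15:75712849-75713098, minus strand: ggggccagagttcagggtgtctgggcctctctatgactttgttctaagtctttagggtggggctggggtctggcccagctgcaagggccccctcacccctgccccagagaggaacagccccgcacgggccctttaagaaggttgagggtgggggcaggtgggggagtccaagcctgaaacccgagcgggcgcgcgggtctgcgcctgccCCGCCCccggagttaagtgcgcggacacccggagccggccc
*ADGRG1*, chr16:57619488-57619692, plus strand: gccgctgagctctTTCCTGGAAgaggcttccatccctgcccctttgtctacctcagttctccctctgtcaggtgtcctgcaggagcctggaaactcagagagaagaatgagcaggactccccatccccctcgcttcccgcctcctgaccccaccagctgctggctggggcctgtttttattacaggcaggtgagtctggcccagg
*DUSP13*, chr10:75099516-75099585, minus strand: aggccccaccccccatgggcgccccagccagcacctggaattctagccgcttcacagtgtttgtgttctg

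The 4 genes shared no motif of this list in the windows searched, which do not cover every annotated start of *ADGRG1* and *DUSP13*. The *AQP3* window holds a TATA box 32 to 27 bases before the start, inside a CArG box at 34 to 25 bases, so the capitals of these 2 matches overlap. It also holds 4 GC boxes, the last 2 of which share bases. The CArG box is in 1.16% of the 35116 RefSeq windows of this length, the TATA box in 10.7% and the GC box in 42.6%. *CSPG4* has 1 GC box at 41 to 36 bases. *ADGRG1* has several starts, and its GAS element lies 237 to 229 bases before the one shown, a motif in 6.57% of windows. The *ADGRG1* window before the canonical start at 57628630 is covered by exons of other *ADGRG1* transcripts and is not shown. It holds 2 AP-1 sites, in 6.57% of windows, and an antioxidant response element, in 10.9% of windows, that overlaps the AP-1 site farther from the start. Another *ADGRG1* window, before the start at 57620046, held no motif of the list and is not shown either. No motif of the list was found in the 2 *DUSP13* windows. A match is a run of letters and not a measured binding site.

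*AQP3* was the most abundant of the 4 in the control. Values are in CPM, counts scaled to the library total, as deposited. It measured 10.1 and 11.9 CPM in the controls, 40.1 and 47.1 CPM with DREAM, 34.4 and 38.7 CPM with the SAM system and 18.1 and 19.9 CPM with dCas9-VPR. All 6 activator libraries were above both controls, and each group's pair was separate from every other pair. In bulk RNA, more cells that carry a transcript and more transcript per cell cannot be told apart. The group means were 3.97, 3.33 and 1.73 times the control mean for DREAM, SAM and dCas9-VPR.

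*CSPG4* measured 7.35 and 5.70 CPM in the controls, 42.9 and 32.1 CPM with DREAM, 33.5 and 27.7 CPM with the SAM system and 22.9 and 18.2 CPM with dCas9-VPR. The DREAM and SAM pairs overlapped, and both lay above dCas9-VPR, which lay above the control. Its means were 5.75, 4.69 and 3.15 times the control mean.

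*ADGRG1*, the receptor gene, was near the detection limit without an activator. It measured 0.192 and 0.131 CPM in the controls, worth about 6 and 4 reads at the estimated depth, against 3.70 and 3.05 CPM with DREAM, 3.20 and 3.41 CPM with the SAM system and 1.12 and 1.09 CPM with dCas9-VPR. The DREAM and SAM pairs overlapped, and the dCas9-VPR pair stood between them and the control. The means were 21.0, 20.5 and 6.85 times the control mean, ratios that rest on about 10 control reads in all.

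*DUSP13* measured 0.574 and 0.750 CPM in the controls, worth 18.0 and 23.0 reads. It was at 5.22 and 8.71 CPM with DREAM, 3.32 and 4.58 CPM with the SAM system and 2.46 and 2.31 CPM with dCas9-VPR. The 4 pairs did not overlap, but the DREAM libraries stood farther apart than any other pair of this gene. The means were 10.5, 5.96 and 3.60 times the control mean.

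**Figure D1:**
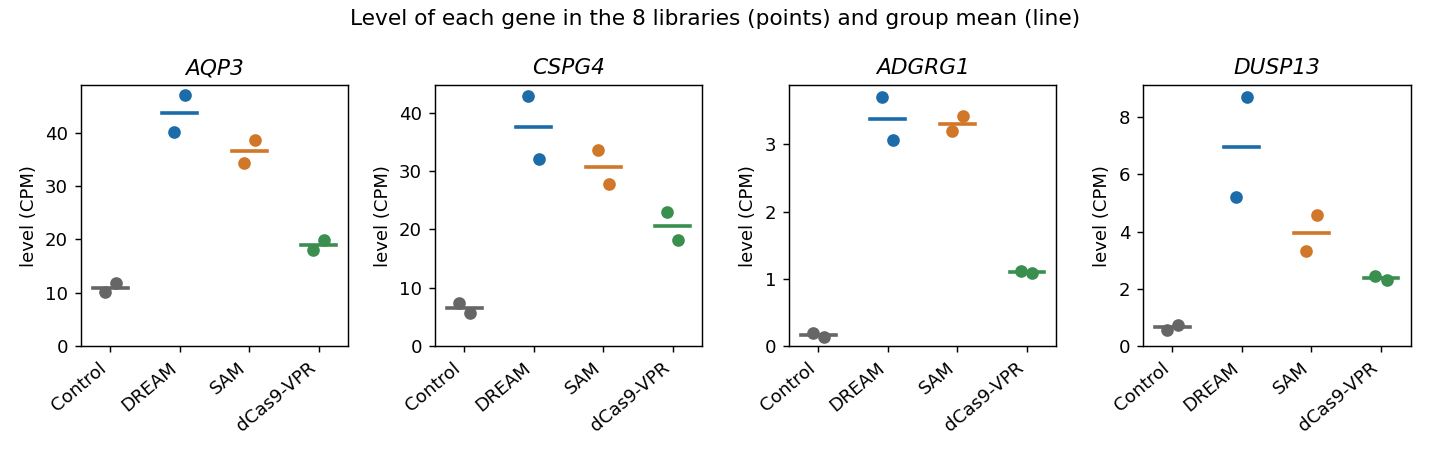
Level of each gene in CPM (linear vertical axis from 0, a separate scale per panel), with a point for each of the 2 libraries of a group and a line at the group mean. The order control, dCas9-VPR, SAM, DREAM holds for the means of all 4 genes, and the *ADGRG1* points of DREAM, 3.70 and 3.05 CPM, lie on both sides of the SAM points.

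To compare levels between genes, the group means were divided by the length of exon sequence counted for the canonical transcript. On that per-kilobase scale the control levels were 6.01 CPM per kb for *AQP3*, 0.787 for *CSPG4*, 0.502 for *DUSP13* and 0.0378 for *ADGRG1*. With DREAM the levels were 23.9, 4.52, 5.28 and 0.794 CPM per kb in the same order. On this length *DUSP13* passed *CSPG4*, while *ADGRG1* stayed lowest and *AQP3* highest. The exons of all *DUSP13* transcripts cover 2441 bases against 1320 in the canonical one, whereas *CSPG4* has 8290 bases by either measure. Over the longer length *DUSP13* stays below *CSPG4*, so the passing rests on the length chosen.

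The fitted differences used log2(CPM + 0.5), which understates the change of the 2 low genes. Relative to the control they were 1.94, 1.69 and 0.77 for *AQP3* with DREAM, SAM and dCas9-VPR, 2.43, 2.15 and 1.58 for *CSPG4*, 2.55, 2.53 and 1.28 for *ADGRG1* and 2.65, 1.93 and 1.32 for *DUSP13*. The median of all 15122 genes tested was 0.06, 0.16 and 0.06, so the SAM values stand on a general shift that the others hardly have. *ADGRG1* and *DUSP13* were under 1 CPM in both control libraries and met the filter of at least 1 CPM in at least 2 libraries only through the activator groups, so they had to differ in order to be in the fit. Genes higher with all 3 activators by more than 2-fold at a false discovery rate under 0.05 were 0.331% of those tested, and 3 of the 4 genes are among them by the choice that was made. *AQP3* is not, since its dCas9-VPR difference was under a fold change of 2. By the smallest of the 3 differences *CSPG4* ranked 10, *DUSP13* 22, *ADGRG1* 24 and *AQP3* 109 of the 995 genes that were higher with every activator at that false discovery rate, 6.58% of the genes tested. *HOGA1* and *HLA-DMA* stood just inside a fold change of 2 in all comparisons, both with a smallest difference of 1.00, and *POMC* at 0.99 and *APOBEC3H* at 0.96 just outside. All activator libraries were above both controls for each of the 4 genes, as they were for 23.2% of all genes tested.

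Differences among the activators were tested with limma across all genes. The genes were chosen by each activator against the control, so the same activator libraries entered the choice and these tests. Genes chosen for a rise may differ among activators more often than other genes. The shares of all genes given here do not allow for that. DREAM gave more *AQP3*, *CSPG4*, *ADGRG1* and *DUSP13* RNA than dCas9-VPR, and the SAM system gave more of the first 3 than dCas9-VPR. In all, 7 of 12 differences passed a false discovery rate of 0.05, with 4 of 4 genes for DREAM relative to dCas9-VPR, 3 of 4 for SAM relative to dCas9-VPR and 0 of 4 for DREAM relative to SAM. Across all genes tested the same calls, in either direction, were made for 13.1%, 29.9% and 10.7%, so 3 of 4 for SAM relative to dCas9-VPR stands against a background where many genes are called. With a fold change above 2 added, 3 of 4 genes remained for DREAM relative to dCas9-VPR, 1 of 4 for SAM relative to dCas9-VPR and 0 of 4 for DREAM relative to SAM, beside 0.734%, 2.31% and 0.721% of all genes.

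Relative to dCas9-VPR, the DREAM difference of *AQP3* was 1.18 on the log2 scale (SE 0.11, limma adjusted p = 0.000347) and that of *CSPG4* was 0.85 (SE 0.17, limma adjusted p = 0.0120). It was 1.27 for *ADGRG1* (SE 0.17, limma adjusted p = 0.00152) and 1.33 for *DUSP13* (SE 0.23, limma adjusted p = 0.00548). For each gene both DREAM libraries were above both dCas9-VPR libraries, an order whose share over all genes was not counted.

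The SAM system exceeded dCas9-VPR by 0.93 for *AQP3* (SE 0.11, limma adjusted p = 0.000465), by 0.57 for *CSPG4* (SE 0.17, limma adjusted p = 0.0316) and by 1.25 for *ADGRG1* (SE 0.17, limma adjusted p = 0.000644). The SAM difference of *DUSP13* was 0.61 with a 95% interval of 0.11 to 1.11 and did not pass (limma adjusted p = 0.0652). The median SAM difference over all genes was 0.10, and with median-of-ratios scaling, which removes that shift, *CSPG4* no longer passed (0.44, limma adjusted p = 0.0552). *ADGRG1* had the largest fitted difference between SAM and dCas9-VPR, while those of *CSPG4* and *DUSP13* lay within 1 SE of each other.

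Between DREAM and SAM no gene passed the false discovery rate in the fit by group alone. In that fit 2 of 4 had an unadjusted p below 0.05 in limma, beside 29.2% of all genes. With a replicate block added, *AQP3*, *CSPG4* and *DUSP13* passed, as given below with the dependence on processing. The interval of the difference was 0.00 to 0.50 for *AQP3* around 0.25, -0.10 to 0.66 for *CSPG4* around 0.28, -0.34 to 0.39 for *ADGRG1* around 0.02 and 0.22 to 1.22 for *DUSP13* around 0.72. The adjusted p-values from limma were 0.165, 0.300, 0.943 and 0.0657. The intervals of *CSPG4* and *ADGRG1* include 0, and those of *AQP3* and *DUSP13* lie above it before adjustment.

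Leaving out single libraries, which leaves 1 library in a group, ended some of these calls. Without dCas9-VPR replicate 2, 4 of 12 passed. *CSPG4* then missed the threshold with DREAM at 0.68 (limma adjusted p = 0.107) and with SAM at 0.40 (limma adjusted p = 0.211), and *DUSP13* with DREAM at 1.29 (limma adjusted p = 0.0569), a difference close to the 1.33 of all libraries. *CSPG4* between SAM and dCas9-VPR also missed it at 0.43 without SAM replicate 1 (limma adjusted p = 0.170) and at 0.70, a larger difference than with all libraries, without SAM replicate 2 (limma adjusted p = 0.0514). Conversely, *DUSP13* differed between DREAM and SAM by 1.06 without DREAM replicate 1 (limma adjusted p = 0.0147), and without either DREAM library its SAM to dCas9-VPR difference passed (limma adjusted p = 0.0208 and 0.0223).

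**Figure D2:**
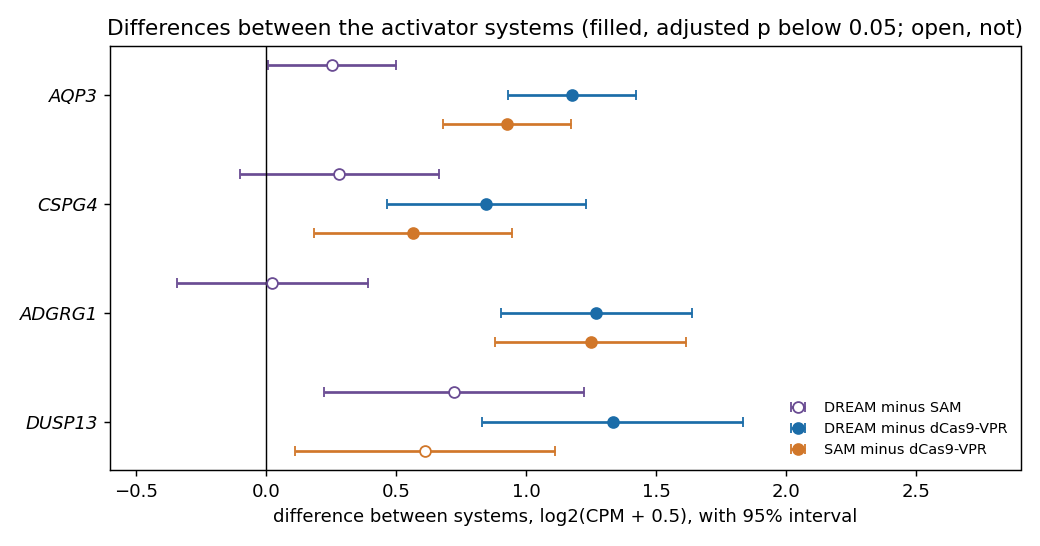
Difference between activator systems for each gene on the log2(CPM + 0.5) scale (horizontal axis), with the 95% interval of the limma fit. Filled points have an adjusted p below 0.05 and open points do not. All 4 DREAM to dCas9-VPR differences lie between 0.85 and 1.33, and the DREAM to SAM differences lie between 0.02 and 0.72.

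To see whether the surroundings of each gene moved with it, genes whose bodies lay within 50 kb were taken from the files. There were 13 such genes, of which 7 met the filter and were tested against the control. The comparisons of the 3 activators share the same 2 control libraries. The threshold was a fold change above 2 together with a false discovery rate under 0.05. Past it there was 1 neighbour with DREAM, 2 with SAM and 0 with dCas9-VPR, beside 2.55%, 4.34% and 1.1% of all genes tested in either direction. These were *ADGRG3* with DREAM and SAM, and *ODF3L1* with SAM. Both genes were under 1 CPM in both controls and met the filter only through activator libraries. They had to differ in order to be in the fit, so their calls do not show that the surroundings moved. Both are also among the 7 genes of the counts and medians that follow. At the false discovery rate alone the counts were 4, 5 and 2, all higher, against 28%, 44.6% and 17.6% of all genes, and at an unadjusted limma p below 0.05 they were 5, 5 and 4, against 40.2%, 52.7% and 34.2% of all genes. The median difference of the 7 was 0.30, 0.60 and 0.21, beside 0.06, 0.16 and 0.06 over all genes.

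On the log2(CPM + 0.5) scale the tested neighbour with the largest difference was *ADGRG3*, the next adhesion receptor gene downstream of *ADGRG1*, at chr16:57668277-57689379, 2.696 kb away on the same strand. It measured 0.542 and 0.424 CPM in the controls, 3.13 and 3.02 CPM with DREAM, 2.49 and 2.701 CPM with the SAM system and 1.40 and 1.16 CPM with dCas9-VPR. The 4 pairs did not overlap and stood in the same order as the *ADGRG1* means. *ADGRG3* rose by 1.87 with DREAM (SE 0.16, limma adjusted p = 3.73e-05) and by 1.66 with SAM (SE 0.16, limma adjusted p = 6.58e-05). With dCas9-VPR the difference was 0.85 (SE 0.16, limma adjusted p = 0.00747), under the fold change, and it missed the false discovery rate at 0.77 without control replicate 2 (limma adjusted p = 0.0645) and at 0.75 without dCas9-VPR replicate 1 (limma adjusted p = 0.0782). Like *ADGRG1*, *ADGRG3* was under 1 CPM in both controls and entered the fit through the activator groups. The other *ADGRG1* neighbours stayed under 1 CPM and were not tested. *ADGRG5*, another receptor of the subfamily, 19.0 kb away, was listed at 0 in control replicate 1 and was at most 0.427 CPM elsewhere. *DRC7*, a subunit of the axonemal dynein regulatory complex, 29.2 kb away, measured 0.0639 and 0.131 CPM in the controls and between 0.289 and 0.972 CPM in the 6 activator libraries, all of them above the control. By the ratio of the mean CPM with SAM to that of the control, several neighbours with lower control levels exceeded *ADGRG3*, among them *DRC7*, *ODF3L1* and *AQP7*.

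Around *CSPG4* the pattern was uneven. *ODF3L1*, 11.2 kb away at chr15:75724041-75727689, measured 0.192 and 0.294 CPM in the controls, 1.14 and 0.667 CPM with DREAM, 1.40 and 1.65 CPM with the SAM system and 0.487 and 0.546 CPM with dCas9-VPR. It rose with SAM by 1.45 (SE 0.22, limma adjusted p = 0.000576), and its difference was 0.90 with DREAM (limma adjusted p = 0.0111), or 1.15 and past the threshold without DREAM replicate 2, and 0.46 with dCas9-VPR (limma adjusted p = 0.162). The DREAM difference missed the false discovery rate at 0.80 without control replicate 1 (limma adjusted p = 0.0622) and at 0.66 without DREAM replicate 1 (limma adjusted p = 0.0822). *ODF3L1* too was under 1 CPM in the controls, and it entered the fit through both SAM libraries and a single DREAM library. The SAM pair of *ODF3L1* was the highest, whereas *CSPG4* was highest with DREAM. *SNX33*, a sorting nexin of endocytosis, 12.02 kb away, measured 19.1 and 17.4 CPM in the controls and 28.4 and 30.7 CPM with SAM, a difference of 0.68 (SE 0.09, limma adjusted p = 0.000316), with 0.30 for DREAM (limma adjusted p = 0.0300) and 0.36 for dCas9-VPR (limma adjusted p = 0.0219). The DREAM call of *SNX33* ended with median-of-ratios scaling (0.23, limma adjusted p = 0.0773), with only the 4 libraries compared (0.30, limma adjusted p = 0.0728) and without control replicate 2 (0.24, limma adjusted p = 0.185) or DREAM replicate 1 (0.29, limma adjusted p = 0.0817). Its dCas9-VPR call ended without control replicate 2 (0.30, limma adjusted p = 0.167), dCas9-VPR replicate 1 (0.45, limma adjusted p = 0.0617) or dCas9-VPR replicate 2 (0.28, limma adjusted p = 0.166). *IMP3*, which encodes a U3 small nucleolar ribonucleoprotein, measured 59.8 and 67.0 CPM in the controls and differed by -0.13, -0.16 and 0.09 with DREAM, SAM and dCas9-VPR, none past the false discovery rate. *IMP3* passed it, as lower, with SAM under median-of-ratios scaling (-0.35, limma adjusted p = 0.0474) and with DREAM without DREAM replicate 2 (-0.33, limma adjusted p = 0.0130). *SNUPN*, the snRNP import adaptor, differed by 0.19, 0.21 and 0.19, and of these the SAM value passed (limma adjusted p = 0.0320). With a replicate block the DREAM and dCas9-VPR values passed too (limma adjusted p = 0.0206 and 0.0267). With median-of-ratios scaling the SAM difference of *SNUPN* was 0.03 (limma adjusted p = 0.778), and it also missed the threshold, at 0.20 to 0.21, without any single control, SAM or dCas9-VPR library (limma adjusted p = 0.0571 to 0.116). The long noncoding RNA genes *DNM1P35* and *AC105020.6* stayed under 1 CPM in all libraries.

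*NOL6*, a nucleolar protein gene 13.8 kb from *AQP3*, measured 25.1 and 19.8 CPM in the controls and between 24.1 and 27.8 CPM in the 6 activator libraries, which overlapped the control. Its differences of 0.21, 0.17 and 0.21 did not pass the false discovery rate in the fit by group alone. With a replicate block those with DREAM and dCas9-VPR passed (limma adjusted p = 0.0245 and 0.0286). Without control replicate 1 the differences of *NOL6* were 0.38, 0.34 and 0.38. *AQP7*, another aquaglyceroporin gene 38.5 kb from *AQP3*, was at most 0.229 CPM and was not tested. It was at most 0.0320 CPM in the controls and 0.0322 CPM with dCas9-VPR, and between 0.176 and 0.229 CPM with DREAM and SAM.

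*SAMD8*, which encodes a sphingomyelin synthase-related enzyme, overlaps the *DUSP13* body on the opposite strand at chr10:75099586-75182124. No base of its exons coincides with a *DUSP13* exon in Gencode release 44. *SAMD8* measured 37.1 and 37.3 CPM in the controls, 53.7 and 48.3 CPM with DREAM, 56.3 and 56.9 CPM with SAM and 43.2 and 42.9 CPM with dCas9-VPR. It was higher by 0.45 with DREAM (SE 0.07, limma adjusted p = 0.00104) and by 0.60 with SAM (SE 0.07, limma adjusted p = 0.000143), while 0.21 with dCas9-VPR did not pass (limma adjusted p = 0.0598). That dCas9-VPR difference passed with a replicate block (limma adjusted p = 0.00749) and with only the 4 libraries compared (limma adjusted p = 0.0396). *DUSP29*, a related phosphatase gene 35.9 kb from *DUSP13*, was listed at 0 in 7 of the 8 libraries and was at 0.0287 CPM in the remaining one. All 6 activator libraries were above both controls for 5 of the 7 neighbours tested, and for 23.2% of all genes. *ADGRG3* and *ODF3L1*, which entered the fit through activator libraries, are among the 5.

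**Figure D3:**
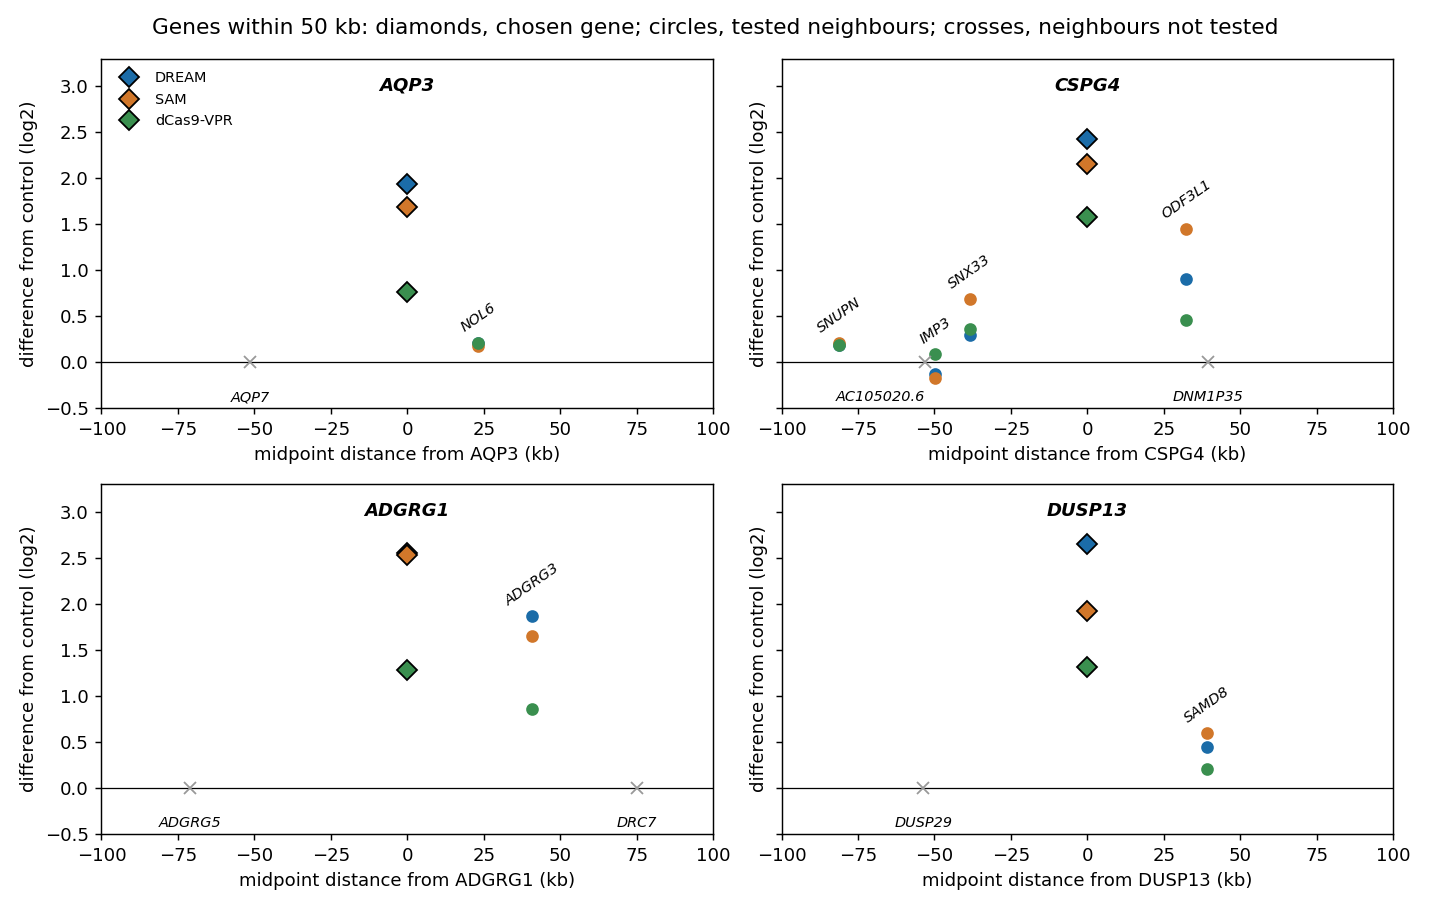
Difference from the control on the log2(CPM + 0.5) scale (vertical axis) for each chosen gene (diamonds) and its neighbours (circles), placed by the distance between gene midpoints in kb (horizontal axis), with colours for the 3 activator systems. Crosses at 0 mark the positions of neighbours that were not tested and carry no value. *ADGRG3* reaches 1.87 and *ODF3L1* 1.45, while the *NOL6* values lie between 0.17 and 0.21.

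Relatives of the 4 genes were listed to see whether whole families moved. Of 99 listed relatives, 81 were in the files and 66 were tested. Past the threshold against the control there were 2 with DREAM, 3 with SAM and 0 with dCas9-VPR, all higher, beside 2.55%, 4.34% and 1.1% of all genes in either direction. At an unadjusted limma p below 0.05 there were 31, 41 and 31, beside 40.2%, 52.7% and 34.2% of all genes. At the false discovery rate alone 19 were higher and 9 lower with DREAM, 26 and 7 with SAM and 13 and 4 with dCas9-VPR. Beside them, 18.8%, 35.7% and 11% of all genes tested were higher at that rate, and 28%, 44.6% and 17.6% were called in either direction.

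Among the adhesion receptors 18 were tested. Those past the threshold were *ADGRG3*, the neighbour described above, and *ADGRE1*. *ADGRE1* measured 2.71 and 3.23 CPM in the controls and 6.49 and 6.85 CPM with DREAM, a rise of 1.05 (SE 0.15, limma adjusted p = 0.000842), which was 0.94 and under the fold change without control replicate 1. With SAM it differed by 0.45 (limma adjusted p = 0.0349) and with dCas9-VPR by 0.03 (limma adjusted p = 0.921). The SAM value of *ADGRE1* was 0.29 with median-of-ratios scaling (limma adjusted p = 0.169) and 0.35 to 0.56 without control replicate 1, control replicate 2, SAM replicate 1 or SAM replicate 2 (limma adjusted p = 0.0521 to 0.173), so that it passed in none of these 5 fits. The most abundant members of the family went their own ways. *ADGRL2*, a latrophilin gene, was lower by 0.26 with DREAM (limma adjusted p = 0.0138), and *CELSR2*, a planar cell polarity cadherin gene, was higher by 0.42, 0.61 and 0.62 with the 3 activators (limma adjusted p = 0.0327, 0.00390 and 0.0112). The family's median difference was 0.17, 0.39 and 0.18.

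For the dual specificity phosphatases 24 were tested. *DUSP2*, a nuclear phosphatase of MAP kinases, measured 1.34 and 1.47 CPM in the controls and 3.63 and 3.16 CPM with SAM, a rise of 1.03 (SE 0.16, limma adjusted p = 0.000625), with 0.94 for DREAM (limma adjusted p = 0.00166) and 0.33 for dCas9-VPR (limma adjusted p = 0.161). The rise with SAM is at the edge of the fold change, at 0.98 without control replicate 1 and 0.94 without SAM replicate 1. *DUSP3*, the most abundant, measured 114 and 109 CPM in the controls and was higher by 0.25, 0.31 and 0.29 (limma adjusted p = 0.00632, 0.00127 and 0.00655). The family's median difference was 0.12, 0.23 and 0.08.

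Of the proteoglycan core proteins 21 were tested. *HSPG2*, which encodes the basement membrane proteoglycan perlecan, measured 8.15 and 5.28 CPM in the controls and 15.0 and 12.9 CPM with SAM, a rise of 1.02 (SE 0.17, limma adjusted p = 0.001002). It was also higher by 0.97 with DREAM and by 0.88 with dCas9-VPR (limma adjusted p = 0.00223 and 0.00781), and without control replicate 1 these were 1.26 and 1.17, past the threshold. The SAM rise was 0.73 without control replicate 2 and 0.92 without SAM replicate 1. *GPC3*, a glypican gene and the most abundant of the list, was lower by 0.51 with DREAM and by 0.43 with SAM (limma adjusted p = 0.000389 and 0.000668). The list's median difference was 0.07, 0.11 and 0.14.

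Only 3 aquaporin genes other than *AQP3* were tested, and none was past the threshold, with 1, 1 and 3 at an unadjusted limma p below 0.05 beside 40.2%, 52.7% and 34.2% of all genes. *AQP4* measured 2.04 and 2.41 CPM in the controls and 4.32 and 5.12 CPM with SAM, higher by 0.93 (limma adjusted p = 0.000884) and past the fold change without control replicate 2 (1.03) or SAM replicate 1 (1.05). *AQP1* measured 1.63 and 1.38 CPM in the controls and 3.01 and 1.93 CPM with dCas9-VPR, a difference of 0.55 that did not pass (limma adjusted p = 0.0838). It passed with a replicate block (limma adjusted p = 0.0254).

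**Figure D4:**
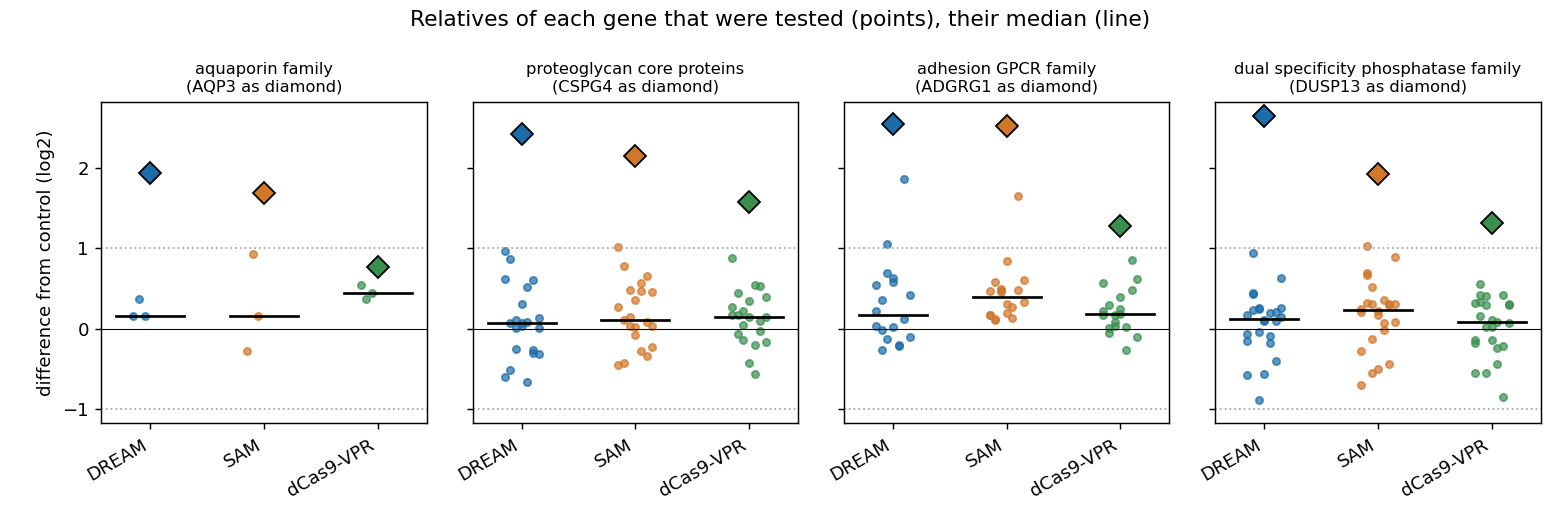
Difference from the control on the log2(CPM + 0.5) scale (vertical axis) for tested relatives of each gene (points), their median (line) and the gene itself (diamond), with 3 aquaporins, 21 proteoglycans, 18 adhesion receptors and 24 dual specificity phosphatases. Dotted lines mark a fold change of 2. Each diamond lies above its relatives, as the choice of the 4 genes makes likely.

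Genes that work with the 4 proteins were listed too. Among 17 tested partners of *CSPG4*, which are collagen VI chains, integrins, growth factor receptors and intracellular adaptors, 2 rose past the threshold with DREAM, 1 with SAM and 0 with dCas9-VPR (9, 10 and 9 at an unadjusted limma p below 0.05). For all genes the shares past the threshold were 2.55%, 4.34% and 1.1%, and those at the unadjusted p were 40.2%, 52.7% and 34.2%. *COL6A3*, a collagen VI chain, measured 1.85 and 1.76 CPM in the controls and 6.26 and 5.20 CPM with DREAM, a rise of 1.43 (SE 0.14, limma adjusted p = 7.76e-05), and it rose by 1.03 with SAM (limma adjusted p = 0.000369), or 0.97 without SAM replicate 1. Its dCas9-VPR difference was 0.58 (limma adjusted p = 0.0202). *COL6A1*, another chain of this ligand, measured 80.2 and 67.9 CPM in the controls and 163 and 145 CPM with DREAM, a rise of 1.05 (SE 0.09, limma adjusted p = 5.88e-05) that was 0.93 without control replicate 2 and 0.96 without DREAM replicate 1, with 0.74 for SAM and 0.52 for dCas9-VPR (limma adjusted p = 0.000322 and 0.00655). Both collagen chains were named because they passed the threshold. Their means were ordered like those of *CSPG4*, highest with DREAM and lowest in the control. The share of all genes with this order was not counted. When single libraries were left out, the dCas9-VPR difference was 0.55 to 0.60 for *COL6A3* and 0.40 to 0.64 for *COL6A1*. The surface partner *ITGB1* differed by 0.15, 0.13 and 0.15 and did not pass.

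No gene among 15 tested ligands and signalling partners of *ADGRG1* was past the threshold with any activator, with 6, 9 and 9 at an unadjusted limma p below 0.05. The shares of all genes at that p, which apply to each list here, were 40.2%, 52.7% and 34.2%, and those past the threshold 2.55%, 4.34% and 1.1%. *RHOA* measured 845 and 776 CPM in the controls and differed by 0.00, 0.02 and 0.15, none past the false discovery rate. *CD81*, a tetraspanin that associates with the receptor, was higher by 0.41, 0.24 and 0.30 (limma adjusted p = 0.00232, 0.0197 and 0.0195). Of 14 MAP kinase genes, the substrates of dual specificity phosphatases, *MAPK10* was past the threshold, with SAM alone called. It measured 1.71 and 1.89 CPM in the controls, 6.01 and 6.58 CPM with SAM, 2.49 and 2.78 CPM with DREAM and 1.47 CPM in both dCas9-VPR libraries. Its rise with SAM was 1.56 (SE 0.14, limma adjusted p = 4.42e-05). Counts at an unadjusted limma p below 0.05 were 9, 7 and 5 for this list. Of 6 tested genes of glycerol and water handling none was past the threshold, with 1, 4 and 5 at an unadjusted limma p below 0.05, and *GPD2*, a mitochondrial glycerol phosphate dehydrogenase gene, was higher with SAM by 0.51 (limma adjusted p = 0.00115).

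*CSPG4* has copies elsewhere on chromosome 15 that could share its reads, and 4 of them are in the files. *CSPG4P12* measured 1.35 and 2.20 CPM in the controls and between 2.07 and 2.55 CPM in the activator libraries, and *CSPG4P11* measured 1.34 and 1.28 CPM in the controls and between 0.853 and 1.67 CPM elsewhere. Neither passed the false discovery rate with any activator, and *CSPG4P5* and *CSPG4P10* stayed under 1 CPM. None of these 4 copies shares a 75-base stretch, the read length, with *CSPG4* in Gencode release 44. A further copy, *CSPG4P13*, shares 4.05% of the *CSPG4* stretches and an antisense long noncoding RNA shares 5.38%, covering 563 exon bases. The library kit keeps strand, but whether the counting used it is not stated, so these 563 bases cannot be assigned with certainty. *AQP3*, *ADGRG1* and *DUSP13* share no such stretch with another gene.

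Across the 8 libraries the 4 genes had Pearson correlations with each other between 0.914 and 0.9751 on the log2(CPM + 0.5) scale, the highest for *AQP3* with *ADGRG1* and the lowest for *CSPG4* with *DUSP13*. The libraries form 4 groups and the genes were chosen for a shared pattern, so these values describe that choice. Among up to 966 genes whose group means span at least 1 on the log2 scale, the pattern of *AQP3* was most like those of *CD79B* (r = 0.995), *PLEKHB1* (0.993) and *USH1C* (0.992). For *CSPG4* they were *KRT8* (0.996), *WNT6* (0.992) and *CNTNAP1* (0.991). For *ADGRG1* they were *SYNPO* (0.997), *CNTFR* (0.996) and *CILP* (0.995). For *DUSP13* they were *SLC2A1* (0.992), *FAM166B* (0.989) and *RGS3* (0.987). *CILP* resembled *ADGRG1* also in level, from 0.0483 CPM on average in the control to 2.03, 2.34 and 0.654 CPM with DREAM, SAM and dCas9-VPR.

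Estimated depth was 28.4 to 35.1 M reads per library, at which 3 reads are worth 0.0854 to 0.105 CPM. *HBG1* and *HBG2* summed to at least 202 CPM in each activator library and to at most 1.29 CPM in the controls, which matches the labels. All 8 markers of HEK293 cells were in the files, 7 or 8 of them at 1 CPM or more in both libraries of a group. Of 9 markers of other cell types 6 were in the files, summing to 7.17 to 7.27 CPM in the control, 10.3 to 12.1 CPM with DREAM, 11.9 to 13.3 CPM with SAM and 7.12 to 7.57 CPM with dCas9-VPR. *MYH6* was at most 0.247 CPM and *PECAM1* between 0.0320 and 1.17 CPM. *GFAP* rose with DREAM and SAM (1.25 and 1.18, limma adjusted p = 0.000883 and 0.000771) and was higher by 0.60 with dCas9-VPR (limma adjusted p = 0.0497). *PECAM1* was higher with DREAM (0.80, limma adjusted p = 0.0160) and SAM (1.46, limma adjusted p = 0.000455). However, *PECAM1* reached 1 CPM only in the 2 SAM libraries and so had to differ in order to be in the fit. *CD14* was lower with dCas9-VPR (-1.01, limma adjusted p = 0.0498) and differed by -0.32 with DREAM and -0.51 with SAM, which did not pass. *CD14* reached 1 CPM only in control replicate 2 and DREAM replicate 2, so a high control value helped to bring it into the fit. *EPCAM* differed by 0.30, 0.56 and -0.34 with DREAM, SAM and dCas9-VPR, and of these the SAM value passed (limma adjusted p = 0.0196). The summed markers were thus higher in the groups in which the 4 genes were highest, and their part in those results was not tested. With dCas9-VPR the marker sum was near the control range, with *GFAP* higher and *CD14* lower within it, and the 4 genes were higher than in the control.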

How the data were processed

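RNA was measured in 8 libraries of HEK293T cells, 2 for each of 4 groups, which were assigned from the sample labels. Per the labels, the authors aligned paired 75-base reads to hg38 with STAR 2.7.3a and used DESeq2 3.5. The deposited values are CPM per gene to which the authors added 0.0001, and genes at that offset are called listed at 0. How genes were chosen for the files, and whether counting used strand, is not given in the sources used here. The protocol names a total RNA kit and the labels polyA RNA.

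The 4 genes and all gene lists were chosen with earlier results of these data known. Log2(CPM + 0.5) was fitted for all groups together in limma 3.58.1 (R 4.3.3, with its trend and robust options), for the 15122 genes that reached 1 CPM in 2 libraries or more, with Benjamini-Hochberg adjustment over them. Differences between activators were called at a false discovery rate below 0.05, and neighbours and lists relative to the control at a fold change above 2 as well. A count model was not run, because reads could not be recovered: of the values under 0.5 CPM in a library, 62.3% to 68.2% came out as whole reads (within 0.02 reads). The fit was tested on simulated data for genes with a control mean of at least 1 CPM, which leaves out *ADGRG1* and *DUSP13*. Beyond read sampling, the noise between simulated libraries was set beforehand and not estimated from these data. Nothing in the labels says that the 2 libraries of a group came from separate cultures, so p-values measure the spread between these samples. With 2 libraries against 2, an exact permutation test cannot go below 0.333.

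Named genes are the 4 genes, all genes within 50 kb, list members past the threshold (at most 4 per list) or the 1 or 2 most abundant, the copies of *CSPG4*, the 3 genes most like each, the genes just inside and outside the threshold, and *HBG1* and *HBG2*. Members of marker lists were named after their values were seen. Exons came from Gencode release 44 and sequences from RefSeq, read with Python 3.11.15 and pandas 2.3.3. Alternatives were other pseudocounts, scalings, filters, thresholds, windows, a replicate block and leaving out single libraries.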

Additional observations from a re-analysis of the deposited data

Results flagged for a closer look

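Differences between activators were singled out where the limma test of the difference itself passed a false discovery rate of 0.05. For the 4 genes these were DREAM over dCas9-VPR in *AQP3* (1.18), *CSPG4* (0.85), *ADGRG1* (1.27) and *DUSP13* (1.33), and SAM over dCas9-VPR in *AQP3* (0.93), *CSPG4* (0.57) and *ADGRG1* (1.25), all on the log2 scale.

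Among the neighbours, *ADGRG3* differed the way *ADGRG1* did, with DREAM over dCas9-VPR by 1.01 (limma adjusted p = 0.00431) and SAM over dCas9-VPR by 0.80 (limma adjusted p = 0.00490). *ODF3L1* was higher with SAM than with dCas9-VPR by 0.99 (limma adjusted p = 0.00653), but it met the filter on low values through the SAM libraries and 1 DREAM library, so its level with SAM helped to bring it into the fit. *SNX33* was higher with SAM than with either other activator, with DREAM minus SAM at -0.38 (limma adjusted p = 0.0269) and SAM minus dCas9-VPR at 0.32 (limma adjusted p = 0.0219), an order that *CSPG4* beside it does not have. *SAMD8* exceeded its dCas9-VPR level by 0.24 with DREAM (limma adjusted p = 0.0441) and by 0.39 with SAM (limma adjusted p = 0.00231).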

How the results depend on the processing

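The count of 7 of 12 differences between activators among the 4 genes was 6 to 8 with other pseudocounts, filters and scalings or only the 4 libraries compared, 4 when a fold change above 2 was added, and 4 to 9 when single libraries were left out. Replicate numbers are shared between groups, and the replicate differences of all 6 pairs of groups correlated positively over genes (0.133 to 0.326). The labels do not say what a number marks, and 2 numbers are too few to settle whether they pair the libraries. With a replicate block 11 of 12 passed, the added ones being DREAM minus SAM of *AQP3* (0.25, limma adjusted p = 0.00983), *CSPG4* (0.28, limma adjusted p = 0.00763) and *DUSP13* (0.72, limma adjusted p = 0.00265) and SAM minus dCas9-VPR of *DUSP13* (0.61, limma adjusted p = 0.00501). The block moved no count of neighbours or relatives past the threshold.

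Neighbours past the threshold with DREAM, SAM and dCas9-VPR (1, 2 and 0) were 2, 2 and 1 at a pseudocount of 0.1, 4, 5 and 2 without a fold change, 2, 4 and 1 at a fold change above 1.5, and 1 to 2, 2 and 0 when single libraries were left out. Relatives (2, 3 and 0) were 5, 4 and 2 at a pseudocount of 0.1, 1, 1 and 0 at a pseudocount of 1 or with median-of-ratios scaling, 28, 33 and 17 without a fold change, 13, 12 and 4 at a fold change above 1.5, and 2 to 3, 2 to 4 and 0 to 1 when single libraries were left out. Windows of 25 and 100 kb left the neighbour counts as they were. The causes were not tested.

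Relative to the control, the *ADGRG1* differences with DREAM, SAM and dCas9-VPR were 3.74, 3.72 and 2.22 at a pseudocount of 0.1 and 1.91, 1.89 and 0.86 at a pseudocount of 1. Those of *DUSP13* were 3.18, 2.40 and 1.71 at 0.1, and 2.23 and 1.56 with DREAM and SAM at 1. Median-of-ratios scaling, which takes the SAM median of all genes from 0.16 to -0.01, put *AQP3* with SAM at 1.51 and *ADGRG1* with SAM at 2.41. Leaving out single libraries gave 1.83 to 2.06, 1.58 to 1.80 and 0.65 to 0.88 for *AQP3*, 2.23 to 2.64, 1.98 to 2.32 and 1.41 to 1.75 for *CSPG4*, 2.43 to 2.67, 2.46 to 2.59 and 1.21 to 1.35 for *ADGRG1* and 2.30 to 2.99, 1.72 to 2.13 and 1.21 to 1.43 for *DUSP13*.

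Differences near 0 changed sign: DREAM minus SAM of *ADGRG1* (-0.10 without DREAM replicate 1, -0.02 without SAM replicate 1, and -0.10 to 0.14 in all), *NOL6* with SAM (-0.00427 with median-of-ratios scaling), *IMP3* with DREAM (0.0740 without its replicate 1; -0.33 to 0.07 over libraries left out) and *ADGRE1* with dCas9-VPR (-0.0176 with median-of-ratios scaling, -0.08 without control replicate 1, -0.14 without dCas9-VPR replicate 2, and -0.14 to 0.20 in all). At the estimated depth, control values of *ADGRG1* lie near the 3-read floor, so its ratio to the control is loosely set.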

Other observations

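Genes of the tissues in which the 4 genes are known to be active were described as well. Of 4 tested genes of collecting duct principal cells, the kidney cells that carry *AQP3*, none was past the threshold, with 4, 3 and 3 at an unadjusted limma p below 0.05. For each of these lists the shares of all genes were 40.2%, 52.7% and 34.2% at that p, and 2.55%, 4.34% and 1.1% past the threshold. *TFCP2L1*, a transcription factor gene of these cells, measured 5.04 and 4.04 CPM in the controls and was higher by 0.68 with DREAM, 0.94 with SAM and 0.47 with dCas9-VPR (limma adjusted p = 0.00443, 0.000471 and 0.0379). *GATA3*, another transcription factor gene of the list at 4.37 and 4.73 CPM in the controls, differed by -0.43, 0.16 and -0.03, none past the false discovery rate (limma adjusted p = 0.0557, 0.417 and 0.902). Of 8 tested pericyte and oligodendrocyte precursor genes none was past the threshold either, with 4, 5 and 5 at an unadjusted limma p below 0.05. *MCAM*, an adhesion molecule of pericytes, was higher by 0.80, 0.48 and 0.32 (limma adjusted p = 3.14e-05, 0.000442 and 0.0125), whereas *KCNJ8*, a potassium channel gene of the same cells, was lower by 0.41, 0.28 and 0.22 (limma adjusted p = 0.00148, 0.00631 and 0.0441).

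Of 3 tested cytotoxic lymphocyte genes none was past the threshold, with 1, 2 and 2 at an unadjusted limma p below 0.05. *TBX21*, the T-bet gene, measured 1.15 and 1.21 CPM in the controls and 2.40 and 2.79 CPM with SAM, higher by 0.88 (limma adjusted p = 0.00434). With DREAM *TBX21* was higher by 0.68 (limma adjusted p = 0.0242), and with dCas9-VPR it differed by -0.51 (limma adjusted p = 0.0898). *GZMB*, the granzyme B gene, measured 1.40 and 1.21 CPM in the controls and differed by -0.07, -0.22 and -0.21, none past the false discovery rate. Of 2 tested muscle and testis genes *CKM*, the muscle creatine kinase gene, was past the threshold and *TNNT1*, a slow muscle troponin gene at 47.6 and 53.9 CPM in the controls, was not, with differences of 0.09, -0.10 and -0.09 (limma adjusted p = 0.456, 0.378 and 0.496). *CKM* measured 0.766 and 0.685 CPM in the controls and rose by 1.12 with DREAM and by 1.28 with SAM (limma adjusted p = 0.000605 and 0.000201), with 0.94 for dCas9-VPR (limma adjusted p = 0.00388), and it entered the fit through the activator groups.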
